A study of Mus musculus with 12 samples.

Results

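Hmga1, Hmga2, Igf2bp2 and Igf2bp3 were examined as a growth-linked gene group, made up of both architectural HMGA genes and 2 members of the IGF2BP family of RNA-binding proteins. They were taken by symbol from the deposited count table, where they are 4 of 23337 genes, and the group was chosen by measured values: Hmga2 was abundant in growing cells and fell strongly with quiescence. The differences between quiescent and proliferating libraries are therefore given for these 4 genes as a description, without a test, and tests are given for the knockdown contrasts, which the choice did not use. Igf2bp1, the family member that was not in the group, is described beside them.

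The libraries came from NU1, a spontaneously immortalized line of normal mouse urothelial cells, the lining cells of the bladder. Each of 4 groups had 3 libraries, 1 from each of experiments 5, 7 and 9: proliferating control, proliferating knockdown, quiescent control and quiescent knockdown. Control cells carried the hairpin shNT (genotype WT) and knockdown cells the hairpin sh4 (genotype Stag2-KD) against Stag2, a subunit of the cohesin ring that holds and folds chromatin. All cells grew in a medium with serum, EGF, insulin, hydrocortisone and cholera toxin; quiescence followed confluence and then 1 µM rosiglitazone, an agonist of the nuclear receptor PPARγ, with 0.5 µM erlotinib, an inhibitor of the EGF receptor, and was labelled day 7 of differentiation. All groups rest on 1 cell line, and the knockdown rests on 1 hairpin. State cannot be told apart from confluence or from either drug.

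HMGA proteins bind the minor groove of AT-rich DNA through AT-hook motifs and help other factors assemble on chromatin; Hmga2 is best known as a gene of embryonic and tumour growth whose loss gives small mice. IGF2BP proteins bind mRNAs, many of them carrying the m6A mark, and steady or localise them; Igf2bp2 is a known target gene of Hmga2. Hmga2, Igf2bp1 and Lin28b are also classic targets of the let-7 microRNAs, which accumulate as cells leave the embryonic state, while Lin28 proteins block let-7 maturation. STAG2 is often lost in bladder cancer, and the knockdown contrasts ask whether the group follows Stag2 in growing and in resting urothelial cells.

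The let-7 seed matches are shown first because they are a sequence feature that the choice of the genes did not use. All 11 let-7 and miR-98 loci in the RefSeq table (GRCm38.p6) gave mature 5p sequences with the same seed, GAGGUAG at bases 2 to 8, in capitals here for 3 of them.
let-7a-5p: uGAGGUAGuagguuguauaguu
let-7i-5p: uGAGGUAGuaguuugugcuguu
miR-98-5p: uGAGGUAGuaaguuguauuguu

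The longest annotated 3′ UTR of each gene (GENCODE M21, GRCm38) was searched on the transcript strand for CTACCTC, the complement of that seed; no other strand was searched, since the target is the mRNA. Hmga2 held 4 matches in 3014 bases, starting 58, 1295, 1733 and 2591 bases after the stop codon, and the first was followed by an A, as a stronger class of site is. The 30 bases around each are given in that order, with the match in capitals.
Hmga2 match 1 (chr10:120364216-120364245, minus strand): ccgacattcaatttCTACCTCagcatcagt
Hmga2 match 2 (chr10:120362979-120363008, minus strand): cccactcctcaataCTACCTCtgaatgcta
Hmga2 match 3 (chr10:120362541-120362570, minus strand): tgatttgcaaggaaCTACCTCcacacttcc
Hmga2 match 4 (chr10:120361683-120361712, minus strand): atcaaaacacactaCTACCTCttaagtccc

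Hmga1, Igf2bp2 and Igf2bp3 held 1 match each, 801, 1313 and 548 bases after the stop codon. An A followed those of Igf2bp2 and Igf2bp3 but not that of Hmga1.
Hmga1 match (chr17:27563278-27563307, plus strand): cctctgttcacaaaCTACCTCtggacggtt
Igf2bp2 match (chr16:22059465-22059494, minus strand): cacacaaataaaagCTACCTCaggtgtttt
Igf2bp3 match (chr6:49086779-49086808, minus strand): gcatttttactcaaCTACCTCaggtattca

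Igf2bp1 held 4 matches in 6337 bases and Lin28b 4 in 4445 bases. An A followed the Igf2bp1 matches 1715, 4136 and 4730 bases after the stop codon, but not that at 5353. In Lin28b an A followed only the match at 36 bases. At least 1 match was present in 10.7% of the 10898 tested genes with an annotated 3′ UTR, and 10 of those genes, or 0.0918%, held at least as many matches as Hmga2. The shorter match to bases 2 to 7, TACCTC, which lies within CTACCTC, occurred 7 times in Hmga2, 6 times in Igf2bp1, 5 times in Lin28b, 2 times in Igf2bp2 and 1 time each in Hmga1 and Igf2bp3; 26.8% of tested genes held it. A match is a description of the letters and not evidence of binding. Mature let-7 was not measured: the libraries were made from poly(A) RNA, and the 11 Mirlet7 hairpin rows together held 127 counts in the 12 libraries, with at most 18 in a library.

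**Figure D1:**
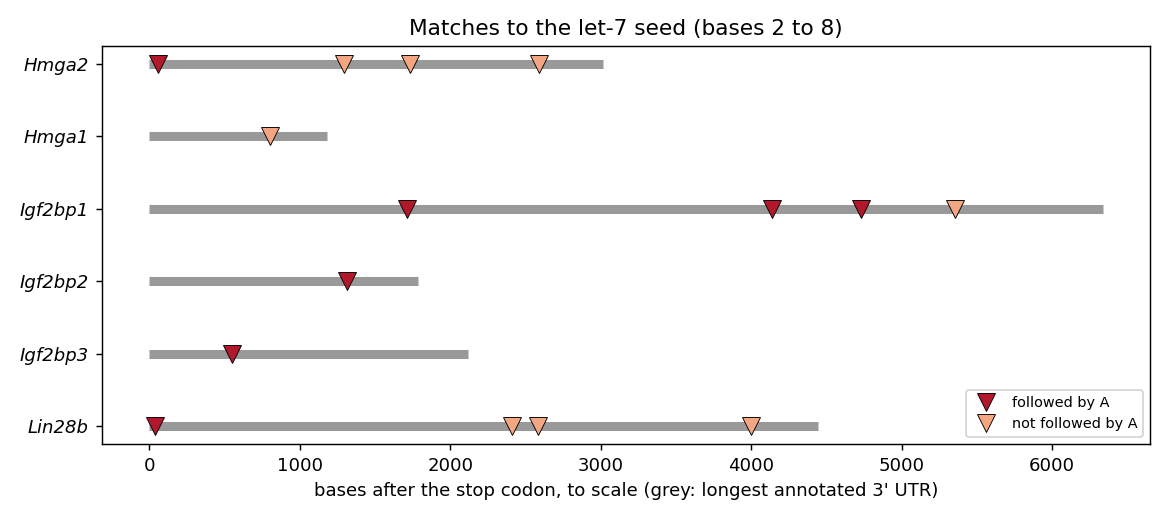
Positions of CTACCTC, the match to let-7 bases 2 to 8, in the longest annotated 3′ UTR of the HMGA and IGF2BP genes and of Lin28b; the x axis gives bases after the stop codon to scale, grey bars the UTR and triangles the matches. Hmga2, Igf2bp1 and Lin28b carry 4 matches each and the other 3 genes 1 each.

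The 12 libraries held 14524429 to 21987539 counts, and no pair was identical. Stag2, the targeted gene, was at 113 to 145 CPM (counts scaled to a common library total, here with TMM factors) in proliferating control, 24.6 to 33.3 in proliferating knockdown, 107 to 128 in quiescent control and 9.43 to 15.3 in quiescent knockdown; every knockdown library was below every control library. Of 20 urothelial and epithelial markers, 16 averaged at least 1 CPM, led by the keratin Krt8 at 6193, while the basal marker Trp63 had no count in any library. The summed epithelial markers ran from 12400 to 17880 CPM in proliferating control, from 14503 to 16708 in proliferating knockdown, from 12437 to 19481 in quiescent control and from 21542 to 23461 in quiescent knockdown. Marker sums for fibroblasts, smooth muscle and endothelium stayed at or below 2.22, 0.656 and 0.239 CPM, and those for immune cells at or below 9.42 CPM. Of the 4 immune markers, 1 averaged at least 1 CPM, Cd68 at 4.69, and Cd3e was at 0. The 4 proliferation markers Mki67, Top2a, Pcna and Mcm2 summed to 754 to 955 and 544 to 1044 CPM in proliferating control and knockdown, and to 78.8 to 118 and 103 to 190 CPM in the quiescent groups.

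Hmga2 (ENSMUSG00000056758, chr10:120361275-120476469, minus strand) was among the most abundant transcripts of growing cells and was far lower in resting ones. In experiments 5, 7 and 9 it stood at 968, 1015 and 904 CPM in proliferating control and at 952, 1001 and 852 CPM in proliferating knockdown. In the quiescent control libraries it stood at 97.9, 158 and 109 CPM, and in quiescent knockdown at 79.2, 154 and 80.2 CPM. All 6 quiescent libraries lay below all 6 proliferating ones, and experiment 7 was the highest in every group.

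The Hmga2 means were 962 ± 55.8 CPM in proliferating control, 935 ± 76.2 in proliferating knockdown, 122 ± 32.1 in quiescent control and 104.5 ± 42.9 in quiescent knockdown (SD, n = 3 each). Within an experiment the quiescent control library kept 12.6% ± 2.77 of its proliferating partner's level, and the quiescent knockdown library 11.0% ± 3.80 (SD, n = 3). The fitted differences were -2.98 (SE 0.27) and -3.16 (SE 0.27) on the log2 scale. By level among the 12406 tested genes, Hmga2 ranked 109th in proliferating control and 1924th in quiescent control. Its mean fell by 840 CPM, the 17th largest drop of all, while by log2 difference it was the 240th, so that its place depended on the scale. In bulk RNA, fewer cells with the transcript and less transcript per cell cannot be told apart. Its processed copy, Hmga2-ps1, has its own row, which held between 1.92% and 5.95% as many counts as Hmga2, and 1.37% of the 50-base windows of Hmga2 transcripts were shared with another annotated gene. How the authors' counting split reads between Hmga2 and its copy is not given in the sources used here.

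Hmga1 (chr17:27556497-27563674, plus strand), its paralog and also an AT-hook protein, had a lower count than Hmga2 in every library. Its level in experiments 5, 7 and 9 was 4.99, 5.48 and 4.38 CPM in proliferating control and 4.78, 6.02 and 2.52 CPM in proliferating knockdown. In quiescent control it was 1.24, 1.10 and 1.25 CPM, and in quiescent knockdown 0.272, 1.19 and 0.527 CPM, the lowest of which was 6 counts. The quiescent libraries again all lay below the proliferating ones. The quiescent control libraries kept 24.5% ± 4.28 of the level of their partners and the knockdown libraries 15.5% ± 8.48 (SD, n = 3), with fitted differences of -2.04 (SE 0.47) and -2.75 (SE 0.49). Its level is uncertain, since how the authors' counting treated reads with more than 1 match is not given in the sources used here. The share of its windows held by other genes is not given here either, so its true level relative to Hmga2 is open.

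Igf2bp2 (chr16:22059009-22163299, minus strand), the family member that adult tissues keep, fell less. Its level was 154, 179 and 181 CPM in proliferating control and 153, 183 and 188 CPM in proliferating knockdown, by experiment in the same order. The quiescent control libraries held 107, 90.6 and 113 CPM and the quiescent knockdown libraries 105, 109 and 120 CPM. The states did not overlap, yet the gap between the lowest proliferating and the highest quiescent library, 153 against 120 CPM, was far narrower than for Hmga2, 852 against 158 CPM. Quiescent control libraries kept 60.8% ± 9.57 and quiescent knockdown libraries 63.8% ± 4.65 of their partners' level (SD, n = 3), with fitted differences of -0.73 (SE 0.13) and -0.65 (SE 0.13). None of its 50-base windows was shared with another gene.

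Igf2bp3 (chr6:49085223-49214957, minus strand), an oncofetal family member seen in embryos and many carcinomas, had 0 or 1 count in every library. The 12 libraries together held 6 counts and 6 libraries held none, so the gene did not pass the filter on low counts and was not tested. A count of 0 allows up to 3 counts, which is 0.136 to 0.207 CPM depending on the library, and this limit covers counting error only. No difference was detectable for it at this depth.

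Across all genes tested, 11% lay wholly lower in the 6 quiescent than in the 6 proliferating libraries and 8.11% wholly higher; Hmga2, Hmga1 and Igf2bp2 were among the lower ones, which their choice does not make a finding. With the experiments pooled, Igf2bp1 did not separate the states: its proliferating libraries ranged from 6.06 to 28.9 CPM and its quiescent ones from 2.45 to 12.5 CPM. Within each experiment its quiescent library was the lower one in both hairpin groups.

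**Figure D2:**
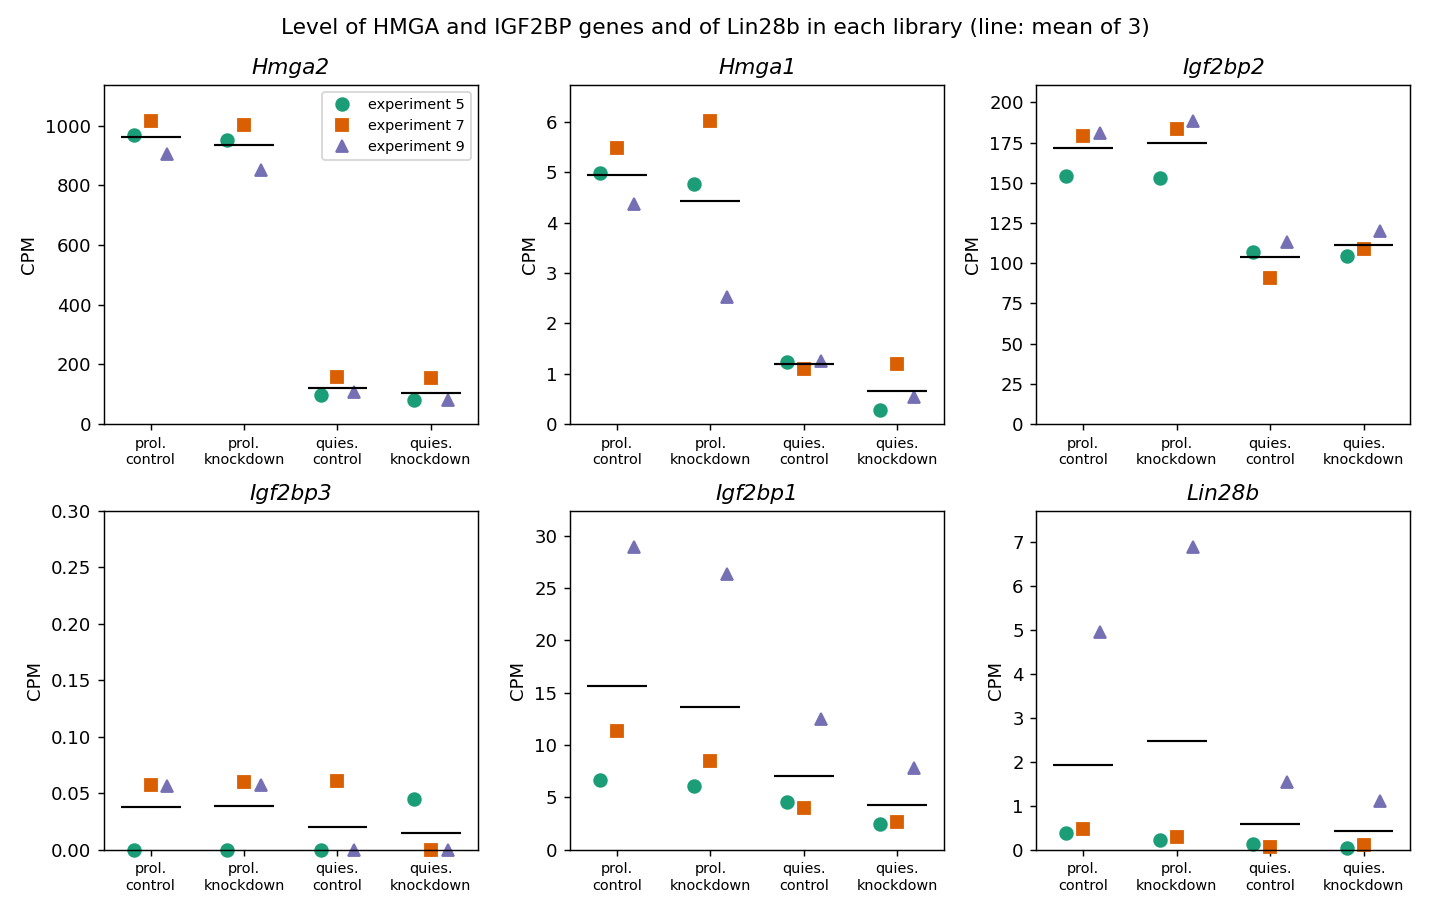
CPM of the 4 chosen genes, of Igf2bp1 and of Lin28b in each of the 12 libraries, on linear axes that start at 0; colours and symbols mark experiments 5, 7 and 9, and lines the mean of 3 libraries. Hmga2 drops from 852 CPM or more to 158 CPM or less, whereas Igf2bp1 and Lin28b are highest in experiment 9 in every group.

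Levels of different genes were compared per kilobase of mean transcript length. In proliferating control Hmga2 led at 256 ± 14.8 CPM per kilobase, above Igf2bp2 at 49.2 ± 4.35, Hmga1 at 4.41 ± 0.495, Igf2bp1 at 1.86 ± 1.40 and Igf2bp3 at 0.0088 ± 0.0076 (SD, n = 3 each). Hmga2 was thus 5.24 ± 0.603 times Igf2bp2 within an experiment, with 4.63 as the lowest ratio. In quiescent control the order at the top was lost: Hmga2 stood at 32.3 ± 8.53 and Igf2bp2 at 29.7 ± 3.34 CPM per kilobase, a ratio of 0.848, 1.62 and 0.892 in experiments 5, 7 and 9. In quiescent knockdown the ratio was 0.702, 1.32 and 0.620. Hmga2 was the higher of the pair in experiment 7 and the lower in the other two, in both resting groups. Hmga1 at 1.07 ± 0.0752 and Igf2bp1 at 0.840 ± 0.568 did not differ beyond their spread in quiescent control. The place of Hmga1 in these orders is as uncertain as its level. With the longest transcript in place of the mean length, Hmga1 dropped to 2.47 and 0.599 CPM per kilobase in the control groups, and in quiescence still lay within the spread of Igf2bp1.

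**Figure D3:**
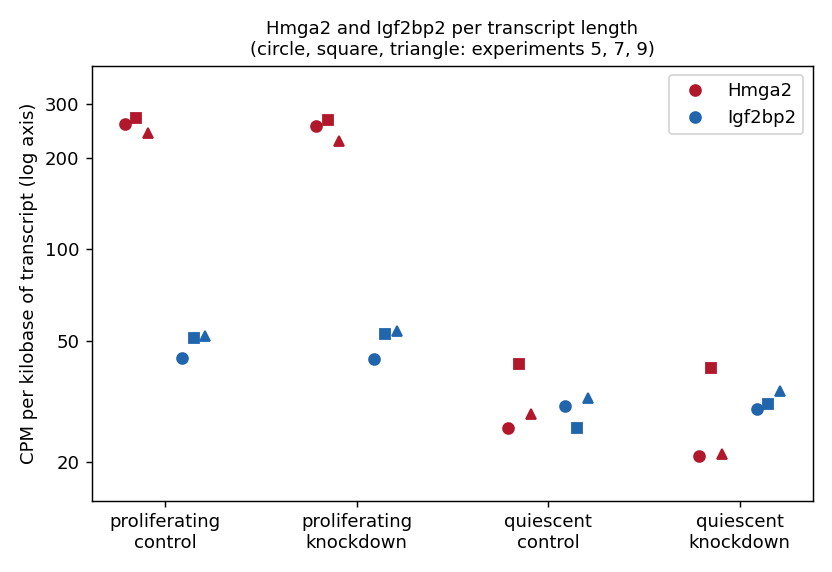
CPM per kilobase of mean transcript length of Hmga2 (red) and Igf2bp2 (blue) in each library, on a log axis, by group on the x axis; circles, squares and triangles are experiments 5, 7 and 9. The 2 genes are 4.20 to 5.83 fold apart in the proliferating libraries and overlap in the quiescent ones.

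Stag2 knockdown moved none of the 3 measured genes past the threshold in either state. In proliferating cells the fitted log2 difference of knockdown from control was -0.04 for Hmga2 (SE 0.25, 95% interval -0.59 to 0.51), -0.16 for Hmga1 (SE 0.44, interval -1.12 to 0.81) and 0.03 for Igf2bp2 (SE 0.13, interval -0.25 to 0.31). The adjusted p-value was 1.00 for each by edgeR's quasi-likelihood test with Benjamini-Hochberg adjustment over all tested genes. By the same test 3 genes, or 0.0242% of those tested, passed 0.05. The interval for Igf2bp2 is the tightest, and that for Hmga1 is the widest.

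In quiescent cells Hmga2 was lower in knockdown than in control in 3 of 3 experiments, by 0.30, 0.04 and 0.44 on the log2 scale, a fitted difference of -0.22 (SE 0.25, 95% interval -0.78 to 0.34, adjusted p = 0.81, edgeR). Hmga1 was lower in 2 of 3 experiments, with a fitted difference of -0.87 (SE 0.49, interval -1.94 to 0.21, adjusted p = 0.54), on 6 to 20 counts per knockdown library; it was -1.59 without quiescent knockdown of experiment 7 and -0.48 without that of experiment 5. Igf2bp2 was higher in 2 of 3, with a fitted difference of 0.10 (SE 0.13, interval -0.18 to 0.38, adjusted p = 0.83). With a replicate block for experiment, differences were -0.25 for Hmga2 (SE 0.18), -0.96 for Hmga1 (SE 0.44) and 0.10 for Igf2bp2 (SE 0.11). The adjusted p-values in that fit were 0.47, 0.26 and 0.65 (edgeR), and the Hmga1 interval was -1.93 to 0.022. Without the block, 54 genes, or 0.435% of those tested, passed in this contrast. Averaged over both states the fitted differences were -0.13 for Hmga2 (interval -0.52 to 0.26), -0.51 for Hmga1 (SE 0.33) and 0.06 for Igf2bp2 (interval -0.13 to 0.26), with 69 genes, or 0.556%, passing.

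The response to knockdown was not shown to depend on state. The interaction, knockdown effect in quiescent minus that in proliferating cells, was -0.18 (SE 0.36) for Hmga2, -0.71 for Hmga1 and 0.07 for Igf2bp2, and edgeR called 0% of tested genes, against 219 at an unadjusted p under 0.05 and 6 by DESeq2. None of the 3 genes had an unadjusted p under 0.05 in any knockdown contrast, and DESeq2 and the fit with the experiment as a replicate block called none of them either. Mki67, the marker of cycling cells, was at 0.552, 6.24 and 7.93 CPM in quiescent control and at 5.49, 33.6 and 17.6 CPM in quiescent knockdown, higher in 3 of 3 experiments, but its fitted difference of 1.92 (SE 0.72) did not pass either (adjusted p = 0.31, or 0.071 with the block, edgeR).

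**Figure D4:**
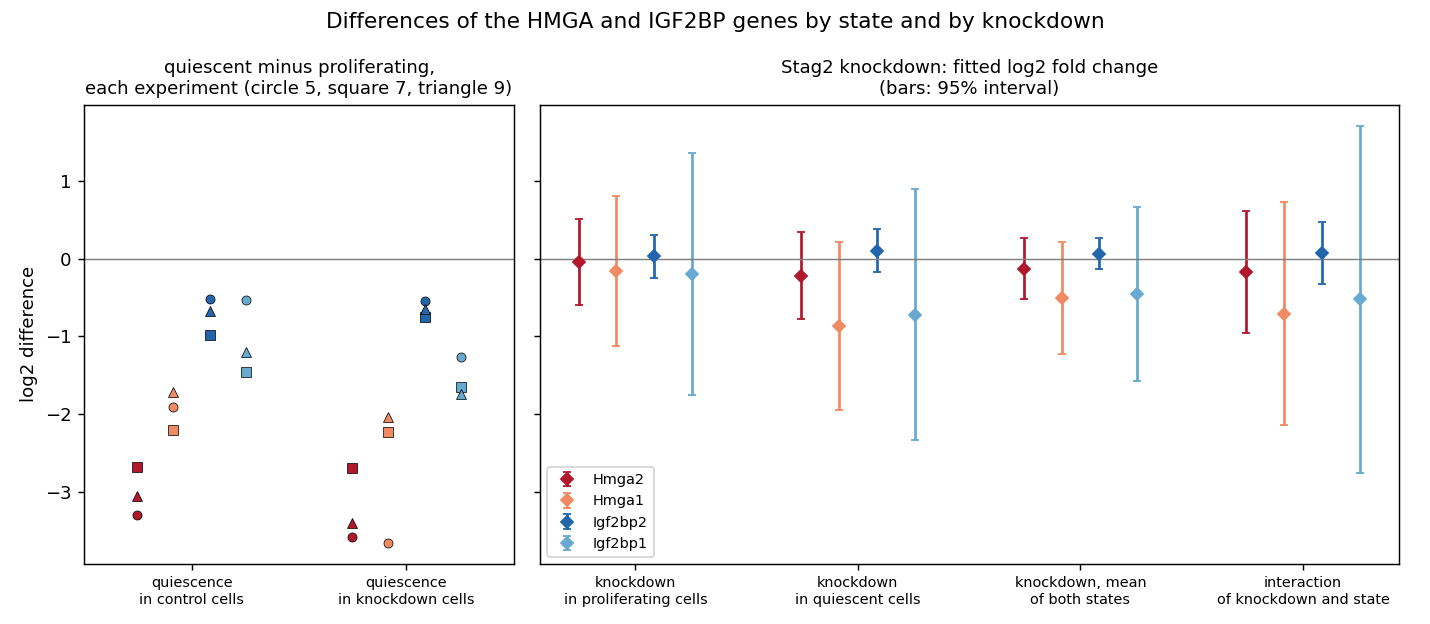
Left, log2 difference of quiescent from proliferating libraries in each experiment (circle 5, square 7, triangle 9); right, fitted log2 fold changes of the Stag2 knockdown contrasts with 95% intervals, for Hmga2, Hmga1, Igf2bp2 and Igf2bp1. The state differences lie between -0.52 and -3.66, and every knockdown interval, all from the fit without the replicate block, includes 0. With the block, 95% intervals of Igf2bp1 excluded 0 in quiescent cells (-1.17 to -0.29) and for the mean of both states (-0.78 to -0.18). Neither passed after adjustment (adjusted p = 0.070 and 0.074, edgeR).

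Igf2bp1 (chr11:95957163-96005940, minus strand), the embryonic paralog and a let-7 target, differed more between experiments than between states. It stood at 6.62, 11.3 and 28.9 CPM in proliferating control and at 6.06, 8.52 and 26.3 CPM in proliferating knockdown. In quiescent control it stood at 4.55, 4.04 and 12.5 CPM, and in quiescent knockdown at 2.45, 2.62 and 7.79 CPM. The experiment 9 library was the highest in all 4 groups, at 2.91 to 3.61 times the mean of the other two. The quiescent library was lower within each of the 3 experiments in both hairpin groups. The fitted quiescence difference was -1.15 in control (SE 0.73, adjusted p = 0.29, edgeR) and -1.67 in knockdown (SE 0.74, adjusted p = 0.14). With the experiment as a replicate block it was -1.09 (SE 0.19, adjusted p = 0.0016) in control and -1.60 (SE 0.19, adjusted p = 0.00021) in knockdown. The call in control rests on the block. Over all other alternatives, none of which held the block, the control value ran from -1.86 (without quiescent control of experiment 9) to -0.35 (without proliferating control of experiment 9) and did not pass. Leaving out 1 library of experiment 9, where the gene was highest, leaves its partners unpaired in those fits. Without the 4 libraries of experiment 9 the quiescence difference was -1.06 in control (adjusted p = 0.11) and -1.52 in knockdown (adjusted p = 0.048). Knockdown in quiescent cells gave -0.72, with an adjusted p of 0.77, and lower levels in 3 of 3 experiments (adjusted p = 0.070 with the block). Leaving out 1 library, in fits without the block, moved that value from -1.47, without quiescent knockdown of experiment 9, to -0.0094, without quiescent control of experiment 9.

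Lin28b, the let-7 blocker, was split by experiment in the same way. It was at 0.393, 0.462 and 4.94 CPM in proliferating control and at 0.233, 0.298 and 6.89 CPM in proliferating knockdown. The quiescent control libraries held 0.138, 0.0612 and 1.55 CPM and the quiescent knockdown libraries 0.0453, 0.119 and 1.11 CPM. Experiment 9 was 11.6 to 25.9 times the mean of the other two, and much of the rest is a handful of counts. Its quiescence difference in control was -1.70 (adjusted p = 0.48), or -1.87 with the block (adjusted p = 0.0064, edgeR). In knockdown it was -2.55 (adjusted p = 0.30), or -2.30 with the block (adjusted p = 0.0023, edgeR). Lin28a, its paralog, had no count in any library. Igf2, the growth factor mRNA that gave the IGF2BP proteins their name, was higher in quiescence, on few counts outside experiment 9. Its fitted difference was 1.65 in control (adjusted p = 0.43, edgeR) and 3.45 in knockdown (adjusted p = 0.11). With the block it was 1.88 (adjusted p = 0.039) and 3.61 (adjusted p = 0.00093). Under knockdown in quiescent cells Igf2 was higher in 3 of 3 experiments, with a fitted difference of 1.96 (SE 1.28). That did not pass (adjusted p = 0.61, or 0.064 with the block, edgeR). Igf2 was also highest in experiment 9 in every group, at 0.966, 1.09, 2.45 and 10.4 CPM. In contrast, Hmga2 and Igf2bp2 of experiment 9 stood at 0.688 to 0.911 and 1.09 to 1.15 times the mean of the other experiments.

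By Pearson correlation of log2 CPM over the 12 libraries with Hmga2, the 5 most similar of 10299 genes were 4930422G04Rik (r = 0.987), the tubulin gene Tubb6 (0.987), Ncln (0.987), the DNA polymerase alpha subunit Pola2 (0.986) and the integrin gene Itga3 (0.984). The 12 points form 2 blocks, growing and resting, which any gene that separates the states shares, and 533 genes reached 0.9. Hmga1 gave 0.939, Igf2bp2 0.898 and Igf2bp1 0.561. After group and experiment were removed, the 5 most similar genes were others: 1700007K13Rik (0.988), the matrix gene Fbln2 (0.984), the clathrin adaptor Ap2a1 (0.982), D0H4S114 (0.980) and the linker histone H1f0 (0.974). On that measure Igf2bp2 gave -0.655, Hmga1 0.425, Igf2bp1 -0.662 and Mki67 0.709. By this r Mki67 took place 961 and Igf2bp2 place 9339, so many genes were more extreme than either, and 122 genes reached 0.9. Libraries with more Hmga2 than their group and experiment would give held less Igf2bp2 and more Mki67. That is a description only, since the fit leaves fewer than 12 independent points.

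Promoter sequence is given for the 2 abundant genes because both were lower in every resting library. RefSeq (GRCm38.p6) gave windows of 300 bases, from 250 before to 50 after the start, read on the gene's strand; capitals mark GGGCGG, the core of the Sp1 motif, on either strand.
Hmga2 promoter (chr10:120476420-120476719, minus strand): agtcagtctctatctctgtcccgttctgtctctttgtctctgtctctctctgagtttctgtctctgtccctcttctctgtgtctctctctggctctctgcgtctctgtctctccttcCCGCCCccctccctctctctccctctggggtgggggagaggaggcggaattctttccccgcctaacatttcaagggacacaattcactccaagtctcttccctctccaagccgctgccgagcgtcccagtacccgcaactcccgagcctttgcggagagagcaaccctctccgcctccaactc
Igf2bp2 promoter (chr16:22163250-22163549, minus strand): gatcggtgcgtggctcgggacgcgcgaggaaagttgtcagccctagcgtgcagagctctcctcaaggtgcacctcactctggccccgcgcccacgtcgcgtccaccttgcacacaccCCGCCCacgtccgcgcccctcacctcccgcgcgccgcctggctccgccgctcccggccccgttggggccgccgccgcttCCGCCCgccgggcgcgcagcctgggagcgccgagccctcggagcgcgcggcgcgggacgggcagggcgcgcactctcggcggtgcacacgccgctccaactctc

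The Hmga2 window is 69% C and T, where the median of 8900 tested promoters is 49.7% and 32 of them, or 0.360%, reach as much. The Igf2bp2 window is a CpG-rich one, at 76.7% G and C against a median of 61.3%. GGGCGG occurred 1 time in Hmga2, 2 times in Igf2bp2 and 4 times in Hmga1, and in 66.2% of tested promoters. The cell cycle elements TTTGAA and TTCGAA and the E2F elements TTTCCCGC and TTTGGCGC, searched on both strands, had no match in these 3 promoters, against 11.5%, 2.11%, 2.16% and 1.11% of tested promoters. The Igf2bp3 window held TTTGAA 2 times.

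The relatives and the known partners of the group, in 6 lists, were read in quiescent against proliferating control, where 20% of all tested genes passed, 11.7% lower and 8.33% higher, with a median log2 difference of 0.0047. Of 11 HMG box and HMGN genes tested, 4 fell, 1 rose and 6 did not pass, with a median of -0.21. Hmgb2, a DNA-bending protein of cycling cells, fell from 120 ± 42.2 to 14.02 ± 4.29 CPM (-3.10, SE 0.41, adjusted p = 0.00052), beside -2.98 for Hmga2. Hmgn2, a nucleosome-binding protein, fell by 1.18 on the log2 scale (SE 0.16, adjusted p = 0.00070), and Hmgb3 rose by 0.81 (SE 0.24, adjusted p = 0.034). In knockdown cells the same 4 genes, Hmgb1, Hmgb2, Hmgn2 and Ssrp1, passed as lower and none as higher, where 18.4% of all genes passed, 10.8% as lower and 7.59% as higher; with the experiment as a replicate block 1 passed as higher, where 15.9% of all genes did so.

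Most genes of the let-7 pathway did not pass. Of 16 tested, 2 rose, 1 fell and 13 did not pass, with a median of -0.30. Zcchc11, a uridylyltransferase that acts on let-7 precursors, rose from 17.1 ± 4.41 to 35.5 ± 5.39 CPM (1.05, SE 0.22, adjusted p = 0.0063). The Argonaute gene Ago4, listed under its older symbol Eif2c4, rose by 1.02 (adjusted p = 0.045), and the RNA-binding gene Syncrip fell by 0.68 (adjusted p = 0.0041). Dicer1, which cuts the precursor, gave -0.17 (SE 0.12, adjusted p = 0.33). With the replicate block 4 of the 16 fell and 2 rose, against 18.5% and 16.8% of all genes.

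Other known let-7 targets, a list that includes Igf2bp1 and Lin28b, moved in both directions. Of 28 tested, 5 fell, 2 rose and 21 did not pass, with a median of -0.30. The S-phase factor E2f2 had the largest fall, from 4.32 ± 1.33 to 0.0638 ± 0.0614 CPM (-5.94, SE 0.71, adjusted p = 0.00034), and cyclin D1 (Ccnd1) fell from 2149 ± 193 to 617 ± 209 CPM (-1.80, SE 0.23, adjusted p = 0.00043). The quiescent mean of E2f2 is below the level of 3 counts, 0.136 to 0.207 CPM, so the size of its fall is uncertain. Cyclin D2 (Ccnd2) rose from 379 ± 53.5 to 659 ± 204 CPM (0.80, SE 0.24, adjusted p = 0.039) and the insulin receptor gene Insr by 0.52 (adjusted p = 0.032). Myc, also on the list, gave -1.14 (SE 0.38, adjusted p = 0.058, or 0.0032 with the replicate block). With the block 10 of the 28 fell and 5 rose, against 18.5% and 16.8% of all genes. Across the genome, the share of genes that passed as lower was 12.03% of 9728 tested genes with no let-7 seed match, 11.99% of 1026 with 1 match, 12.3% of 122 with 2 and 10.5% of 19 with 3 or more, with the chosen genes left out and Igf2bp1 kept.

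Of the 10 tested genes with at least 4 matches, Hmga2 had the lowest value, which its choice makes a description. Beside Hmga2 and Igf2bp1, 4 had values above 0 and 4 below. Nr6a1 held 8 matches and gave 0.52 (adjusted p = 0.10), Mcf2l 7 and 2.46 (SE 1.33, adjusted p = 0.21), Nudt12 7 and 0.50 (adjusted p = 0.067) and Hic2 4 and 0.17 (adjusted p = 0.78). On the lower side, Trim6 held 6 and gave -0.23 (adjusted p = 0.56), Zbtb37 4 and -0.47 (adjusted p = 0.13), and Lin28b 4 and -1.70. D10Wsu102e, with 4 matches in an annotated 3′ UTR of 122583 bases, was the only one of these 8 to pass in edgeR without the block, and it fell (-0.87, SE 0.15, adjusted p = 0.0028). These genes, apart from Lin28b, were named after their values were seen.

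The mRNAs known to be bound by IGF2BP proteins moved in both directions. Of 16 tested, 3 fell, 3 rose and 10 did not pass, with a median of 0.16. The cell surface glycoprotein gene Cd44 fell from 313 ± 98.6 to 79.1 ± 12.1 CPM (-1.99, SE 0.35, adjusted p = 0.0031), and Ccnd1, which this list shares with the let-7 targets, fell as above. The tau gene Mapt rose by 1.47 (SE 0.39, adjusted p = 0.022) and the laminin gene Lamb2 rose from 89.4 ± 15.2 to 219 ± 22.2 CPM (1.30, SE 0.15, adjusted p = 0.00024). With the block 6 of the 16 fell and 5 rose, against 18.5% and 16.8% of all genes. Of 18 genes that write, erase or read m6A, 1 fell, the reader Hnrnpa2b1 (-0.73, SE 0.22, adjusted p = 0.036), none rose and 17 did not pass. With the block 4 of these 18 fell and 1 rose, beside the same shares of all genes.

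Genes reported as regulated by HMGA proteins were the list with the largest share of lower genes. Of 10 tested, 6 fell, none rose and 4 did not pass, with a median of -1.10. They were the cyclins Ccna2, from 93.9 ± 29.3 to 2.92 ± 2.25 CPM (-4.99, SE 0.81, adjusted p = 0.0019), and Ccnb2 (-4.53, SE 0.86, adjusted p = 0.0044), the cell cycle factor E2f1 (-2.07), the mesenchymal factor Snai2 (-2.66), the DNA repair gene Ercc1 (-1.42) and Junb (-0.79). The list holds cell cycle genes, and the proliferation markers moved with it, from 754 to 955 CPM in proliferating control to 78.8 to 118 in quiescent control; their part in the result was not tested. In knockdown cells 6 of the 10 passed as lower again, or 7 with the block, where 17.2% of all genes passed as lower.

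These counts fell when experiment 7 or 9 was left out. So did the number of all genes called in control, from 2481 of 12406 to 592 without experiment 7 and 892 without experiment 9. The fall is therefore not particular to the lists. With any single library left out, 1394 to 3078 of all genes were called in control. Without the 4 libraries of experiment 7, which leaves 2 per group, the genes that passed as lower in control were 2 of the HMG box and HMGN list, 0 of the let-7 pathway, 2 of the other let-7 targets, 2 of the IGF2BP-bound transcripts, 0 of the m6A list and 2 of the HMGA-regulated list. Without experiment 9 they were 3, 0, 3, 1, 0 and 5, and without experiment 5 they were 4, 1, 5, 3, 1 and 5, in the same order. The genes that passed as higher were 0, 0, 0, 1, 0 and 0 without experiment 7, against 1, 2, 2, 3, 0 and 0 with all libraries. With any single library left out, 5 to 6 of the HMGA-regulated list, 5 to 7 of the other let-7 targets, 3 to 4 of the HMG box and HMGN list and 2 to 4 of the IGF2BP-bound transcripts passed as lower. No other let-7 target passed as higher, so that Ccnd2 and Insr lost their calls, without proliferating control of experiment 7 or quiescent control of experiment 5 or 7; Hmgb3 lost its call without any of these or without proliferating control of experiment 9. Of the let-7 pathway 1 gene rose in place of 2, unless the library left out was proliferating control or quiescent control of experiment 5. The IGF2BP-bound transcripts that rose dropped to 1 without proliferating control of experiment 9 or quiescent control of experiment 7. Without proliferating control of experiment 7 or 9, any of the 3 quiescent control libraries or quiescent knockdown of experiment 7, no m6A gene passed.

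**Figure D5:**
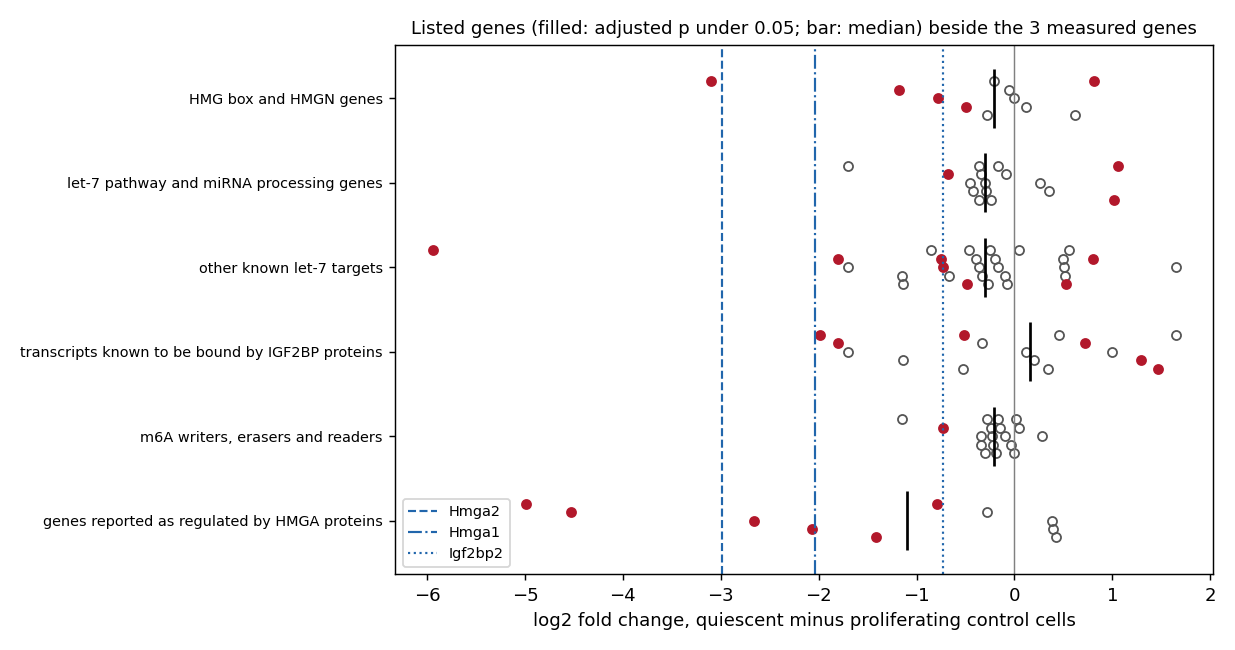
Log2 fold change of each tested gene of the 6 lists in quiescent against proliferating control cells; filled points passed an adjusted p of 0.05 in edgeR, open points did not, bars are list medians, and vertical lines mark Hmga2, Hmga1 and Igf2bp2. The list medians run from -1.10 to 0.16.

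Under knockdown in quiescent cells none of the 92 tested genes on the 6 lists passed (edgeR), while 13 had an unadjusted p under 0.05 and DESeq2 called 4. Of all 12406 tested genes, 1489 had an unadjusted p under 0.05 (edgeR) and DESeq2 called 387, so these list counts are near the share over all genes. With the replicate block, under which 3.55% of all genes passed, 7 did. Khsrp, a splicing factor that promotes let-7 processing (-0.56, adjusted p = 0.029), the m6A methyltransferase Mettl3 (-0.52, adjusted p = 0.046) and the cell cycle inhibitor Cdkn2b (-0.77, adjusted p = 0.029) fell in that fit, and E2f1 (0.99, adjusted p = 0.021), E2f2 (2.70, adjusted p = 0.039) and Ccnd3 (0.79, adjusted p = 0.034) rose. The size of the E2f2 rise is uncertain, since its mean in quiescent control was below the level of 3 counts. H19, an imprinted RNA bound by IGF2BP proteins, rose as well (adjusted p = 0.0038): it had no count in quiescent control of experiments 5 and 7 and 0.239 CPM in experiment 9, against 0.997, 0.656 and 4.16 CPM in quiescent knockdown. None of these 7 passed in edgeR without the block, where their adjusted p-values ran from 0.060 for Cdkn2b to 0.32 for Mettl3, whereas DESeq2, also fitted without the block, called Cdkn2b and E2f1 of them, beside Hmgn3 and Snai2. In proliferating cells none of the 92 passed (1 with an unadjusted p under 0.05, 0 by DESeq2), against 228 and 12 of all tested genes by these 2 measures.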

How the data were processed

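RNA-seq counts were taken as deposited by the authors: whole-number counts per gene for 12 libraries, in 1 table with no row that names no gene. The submitters' processing notes name Bowtie, TopHat, HTSeq, DESeq2 and mm10; the counting settings, annotation and use of strand are not given in the sources used here. The labels name ERCC spike-ins, of which the table has 0 rows. Libraries were grouped by their labels; the table's columns carry the experiment numbers 5, 7 and 9, and the label's batch follows the same number.

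Counts were fitted in R 4.3.3 with edgeR 4.0.16 (TMM, filterByExpr with a minimum count of 10, 4 group means, two-sided quasi-likelihood test, Benjamini-Hochberg over 12406 genes, threshold 0.05). DESeq2 1.42.0 was an alternative. The edgeR script was tested on simulated counts. P-values measure the spread between these libraries, whose independence as cultures is given only by experiment number. Levels are CPM on TMM-scaled totals. Library pairs that share a number deviated together from their group means (mean r 0.526, 0.225 to 0.789, 18 pairs), so the number pairs the libraries. For other pairs the mean r was -0.259 (-0.612 to 0.312, 36 pairs), and the ranges overlap. That second mean is not separate evidence, since deviations from a group mean cancel within the group. The blocked fit is given for some of the calls that it changes, not for all, and for some values whose call it does not change. The 2 quiescence contrasts use separate libraries, but the knockdown contrasts share theirs with them.

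The genes, lists and tests were chosen with earlier results of these data known. Named genes are Stag2, the 4 chosen genes, Igf2bp1, the 5 most like Hmga2 by each of 2 measures, up to 2 rising and 2 falling genes of each list, and Lin28a, Lin28b, Dicer1, Myc and Mki67; others were chosen after their values were seen. Older symbols were matched through RefSeq synonyms. Protein sequences are not used here.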

Additional observations from a re-analysis of the deposited data

How the results depend on the processing

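The 3 measured genes kept their direction in both quiescence contrasts under every alternative run, and moved by less than the SD between experiments; Hmga2 ran from -3.21 to -2.84 in control and from -3.54 to -2.98 in knockdown. No alternative called Hmga1, Hmga2 or Igf2bp2 in a knockdown contrast. Leaving out 1 library, in fits without the block, moved the proliferating knockdown value of Hmga1 from -0.44 to 0.12, of Hmga2 from -0.095 to 0.015, of Igf2bp2 from -0.044 to 0.12 and of Igf2bp1 from -1.11 to 0.60. It moved the quiescent value of Hmga2 from -0.61 to 0.0089, the latter without quiescent control of experiment 7, and the interaction from -0.56 to 0.051 for Hmga2, from -0.018 to 0.14 for Igf2bp2 and from -1.33 to 0.38 for Igf2bp1. Without the 4 libraries of experiment 9, chosen as an alternative after seeing the data, Hmga1 in proliferating knockdown was 0.049.

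Counts of genes called moved more. With the replicate block (pairing by experiment) they were 440 for knockdown in quiescent cells, 500 for the mean of both states, 4374 for quiescence in control and 4096 in knockdown, against 54, 69, 2481 and 2279 without it. The block changed no call of the 3 measured genes. DESeq2 called 12, 387, 387 and 6 genes for knockdown in proliferating cells, in quiescent cells, for the mean and for the interaction, against 3, 54, 69 and 0. With only the libraries of the contrast, knockdown in proliferating cells gave 1 and quiescence in control 1582. Without experiment 5, 7 or 9, each left out whole, the knockdown counts were 0, 0 and 0 in proliferating cells, 1, 1 and 2 in quiescent cells and 3, 1 and 4 for the mean; without experiment 7 or 9, quiescence gave 592 and 892 in control and 701 and 736 in knockdown, with fewer samples in the fit. Leaving out 1 library gave 1 to 3, 5 to 64, 12 to 96, 0 to 0, 1394 to 3078 and 1186 to 2408 genes for the 6 contrasts, in the order proliferating, quiescent, mean, interaction, quiescence in control and in knockdown. The cause was not tested. An arm left with 2 libraries was assumed to vary like the others.

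With the longest transcript, Igf2bp2 in proliferating control was 43.98 CPM per kilobase, and the 5 genes most like Hmga2 shared 0 with those of the second measure. Depth limits Hmga1 in quiescent knockdown (6 to 20 counts) and Igf2bp3. Hmga1 was left out by the mean count minimum of 50, so that alternative gave no value for it.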
